A study of Mus musculus with 18 samples.

Results

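The complement genes described here are 9 members of 1 defence system. They are the C1q chain genes C1qa, C1qb and C1qc, the component genes C3 and C4b, the alternative pathway genes Cfb and Cfp, and the anaphylatoxin receptor genes C3ar1 and C5ar1. Members were given by gene symbol, in a list drawn up with earlier results of these data known, and all 9 were found among the 23337 symbols of the count table. All 9 were among the 17143 genes that passed the low-count filter.

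RNA was sequenced from CD45-positive immune cells sorted out of the digested aortas and carotid arteries of atherosclerotic mice. Every group came from male and female C57BL/6 Apoe-/- mice carrying both the Cx3cr1GFP and the Cd11cYFP reporter, 7 months old and fed a Western diet for 5 months. No group of mice without the reporters, with functional Apoe or on another diet is part of the comparisons. GFP reports Cx3cr1, which encodes the fractalkine receptor on monocytes and part of the macrophages, and YFP reports Cd11c, the integrin subunit encoded by Itgax. The subsets are GFP+YFP- cells (GFP, n = 6), GFP+YFP+ cells (DP, n = 4), GFP-YFP+ cells (YFP, n = 5) and GFP-YFP- cells (DN, n = 3), 18 libraries in all. Nothing in the labels ties each replicate to its own mouse, so p-values measure the spread between these libraries, which may be partly technical. The series concerns macrophage subsets of atherosclerotic lesions, and the comparison asks how complement transcripts differ between the sorted subsets.

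Complement is a cascade of plasma and locally made proteins that tags surfaces for uptake and can punch holes in membranes. In the classical pathway, C1q, built from A, B and C chains, recognises antibody complexes or dying cells and leads to cleavage of C4 and then of C3. In the alternative pathway, factor B (Cfb) joins deposited C3b to form a convertase that properdin (Cfp) stabilises. The small fragments C3a and C5a signal through C3ar1 and C5ar1 on myeloid cells. Macrophages are a main source of C1q, whereas many stromal cells make C3 and factor B, and C1q is known in atherosclerosis for its part in the clearance of apoptotic cells and modified lipoproteins.

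Total gene counts ranged from 9790946 to 27742113 in 17 libraries and were 289166 in YFP replicate 6. The smallest member count in any library was 30, for Cfb in that library. For the reporter genes, 5 libraries went against their labels, and 1 more stood apart by its marker genes. Cx3cr1 was at 9.43 and 0.427 CPM (a gene's count scaled by library size) in the libraries labelled DP replicates 4 and 5, against 92.7 and 118 CPM in DP replicates 1 and 2, and Itgax was at 38.6 and 47.8 CPM there. Cx3cr1 was at 142 and 134 CPM in the libraries labelled DN replicates 3 and 6, with Itgax at 332 and 297 CPM there. In GFP libraries Cx3cr1 was at 80.9 to 165 CPM and Itgax at 107 to 191 CPM. The library labelled YFP replicate 6 held Cx3cr1 at 104 CPM, inside the GFP range, and Itgax at 89.6 CPM, below it. In YFP replicates 1, 3, 4 and 5 Cx3cr1 was at 0.930, 60.7, 60.01 and 26.3 CPM, below every GFP library, and Itgax at 175, 379.7, 499 and 1120.1 CPM. Ptprc, the gene of CD45, was at 439 to 1248 CPM in all 18 libraries. Reads of Apoe were counted at 1.81 to 208 CPM, and where in the gene they lay was not examined. The summed level of 8 macrophage markers was 1852 to 13115 CPM in the GFP, DP and YFP libraries and 9295 and 9131 CPM in DN replicates 3 and 6, but 348 CPM in DN replicate 1. That library held the highest sums of B cell markers (4 of 4 matched, 1159 CPM) and T cell markers (4 of 5 matched, 1032 CPM). The neutrophil markers reached 38708 CPM in DP replicate 5. In bulk samples of this kind, fewer cells of a type and less RNA per cell cannot be told apart.

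Promoter sequences are shown for C1qb, Cfp and C3, because C1qb and Cfp varied together over the libraries while C3 varied the opposite way. RefSeq promoters of the GRCm38.p6 assembly were matched for 6 of the 9 members. C1qa, C4b and Cfb were not matched. The stretches are the 250 bases before the RefSeq start, 5′ to 3′ on the minus strand, at chr4:136886201-136886450 for C1qb, chrX:20931556-20931805 for Cfp and chr17:57228137-57228386 for C3. Capitals mark motif matches.
C1qb: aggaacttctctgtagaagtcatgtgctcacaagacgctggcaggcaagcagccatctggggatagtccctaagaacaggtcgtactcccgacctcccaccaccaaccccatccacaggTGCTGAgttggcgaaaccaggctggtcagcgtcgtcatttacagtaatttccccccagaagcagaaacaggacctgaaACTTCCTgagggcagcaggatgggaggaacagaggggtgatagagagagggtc
Cfp: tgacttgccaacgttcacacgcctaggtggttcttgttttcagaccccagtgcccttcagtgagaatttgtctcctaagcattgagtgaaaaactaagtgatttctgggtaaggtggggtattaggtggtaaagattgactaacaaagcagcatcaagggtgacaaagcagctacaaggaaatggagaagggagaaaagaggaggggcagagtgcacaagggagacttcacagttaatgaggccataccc
C3: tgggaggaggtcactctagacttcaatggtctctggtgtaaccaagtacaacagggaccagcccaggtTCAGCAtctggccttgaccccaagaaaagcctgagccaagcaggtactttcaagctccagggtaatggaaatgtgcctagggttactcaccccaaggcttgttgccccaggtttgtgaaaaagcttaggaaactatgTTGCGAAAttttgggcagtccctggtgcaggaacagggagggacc
The motifs were searched on both strands: the Maf recognition core TGCTGA, the PU.1 and Ets site AGGAAGT, the C/EBP site TTGCGNAA and the TATA box TATAAA. Of 32851 RefSeq promoters searched over the same 250 bases, 16.1% held the Maf core, 7.69% the PU.1 and Ets site, 0.67% the C/EBP site and 12.4% the TATA box. The C1qb stretch held TGCTGA 131 bases before the start and the reverse form of the Ets site 53 bases before it. The C3 stretch held the reverse form of the Maf core at 182 bases and a C/EBP match at 45 bases. The Cfp stretch held no match. The remaining matches were a reverse Ets site in C1qc, at 195 bases, and a reverse Maf core at 144 bases and a TATA box at 235 bases in C3ar1. The stretches at hand for C1qc, C3ar1 and C5ar1 had 99, 246 and 48 bases, shorter than the 250 behind the percentages. The C1qc stretch does not reach the RefSeq start, so the bases nearest that start were not searched. Such matches describe the letters only.

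The 3 C1q chain genes were abundant in every subset, with C1qb between rank 8 and rank 650 of the genes in a library, and no difference between subsets exceeded the spread between libraries. They encode the A, B and C chains of the recognition molecule that opens the classical pathway. All 3 lie side by side on the minus strand of chromosome 4 in mm10, C1qb at 136880129 to 136886187, C1qc at 136889804 to 136893065 and C1qa at 136895917 to 136898803, each with 3 exons in the GENCODE vM21 annotation. The gaps are 3616 and 2851 bases.

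C1qb stood at 2457, 2899, 3665, 4646, 9195 and 6087 CPM in GFP replicates 1 to 6. Its level was 2728, 3775, 1324 and 14378 CPM in DP replicates 1, 2, 4 and 5. YFP replicates 1, 3, 4, 5 and 6 gave 1089.8, 3942, 5128, 22081 and 3935 CPM. DN replicates 1, 3 and 6 gave 149, 2899 and 8669 CPM. YFP replicate 5 and DP replicate 5 were highest, DN replicate 1 was lowest, and all 4 subsets overlapped. Mean levels were 4825 ± 2505 CPM in GFP (SD, n = 6), 5551 ± 5970 in DP cells (n = 4), 7235 ± 8431 in YFP cells (n = 5) and 3905 ± 4348 in DN (n = 3). The spread within a subset was smallest in GFP, where the highest library was 3.74 times the lowest, against 10.9 times in DP, 20.3 times in YFP and 58.3 times in DN.

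C1qa was lower than C1qb in every library, also per length, where C1qb stood 1.63 to 4.26 times as high. C1qa was at 1012 to 2826 CPM in GFP (median 1328), at 1154, 1745, 476 and 3934 CPM in DP replicates 1, 2, 4 and 5, and at 466, 1149, 1514, 4950.0 and 1200.1 CPM in YFP replicates 1, 3, 4, 5 and 6. In DN replicates 1, 3 and 6 it was at 87.2, 837 and 2539 CPM. C1qc ranged from 1569.5 to 5637 CPM in GFP (median 2571), from 983 to 12008 CPM in DP, from 732 to 12869 CPM in YFP and from 108 to 4764 CPM in DN. The highest and lowest libraries of each subset were the same for all 3 chains, apart from GFP, where the lowest for C1qa was replicate 3 and for C1qb and C1qc replicate 1. Together the chains took 0.0601% of all counts in DN replicate 1 and 1.77% in YFP replicate 5, the lowest and highest shares.

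In YFP versus GFP the log2 fold change was 0.25 ± 0.65 (SE) for C1qa, 0.58 ± 0.74 for C1qb and 0.53 ± 0.74 for C1qc. The adjusted p-values in edgeR's quasi-likelihood test were 0.981, 0.977 and 0.977. The approximate 95% interval for C1qb ran from -0.87 to 2.04 and covered differences of several fold. Without YFP replicate 5 the 3 values were -0.50, -0.41 and -0.42, the opposite direction.

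**Figure D1:**
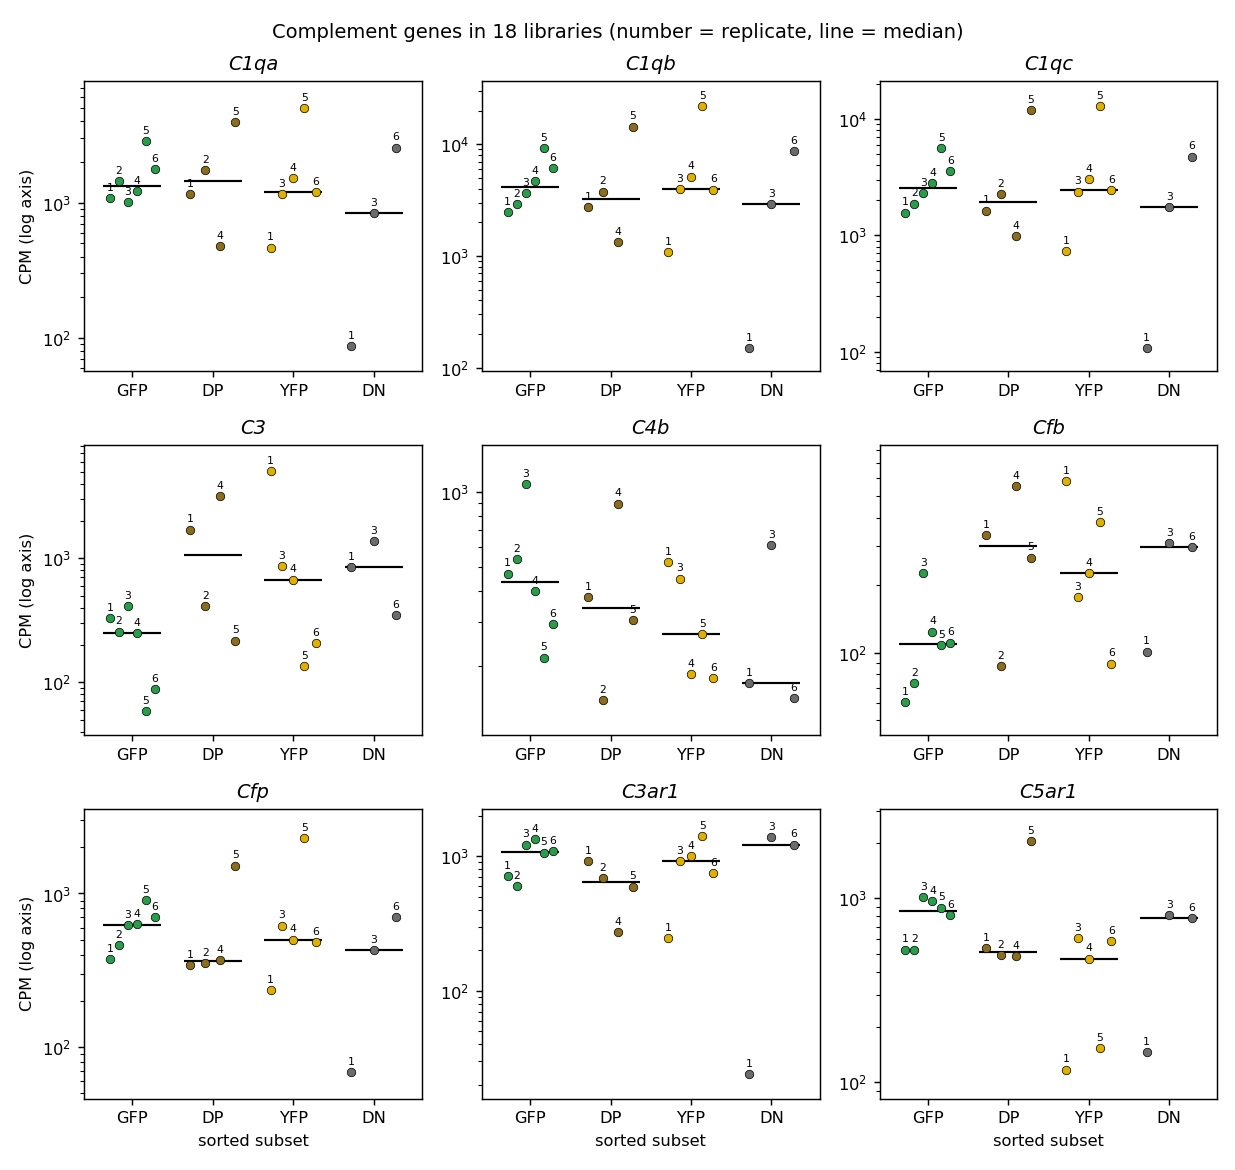
CPM on a log axis for each of the 9 genes by sorted subset, with 1 point per library, its replicate number above it and a line at the subset median. The C1q chains and Cfp peak in YFP replicate 5 and DP replicate 5, C3 peaks in YFP replicate 1 and DP replicate 4, and no gene separates any pair of subsets.

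Scaled to exon length, C1qb was the most abundant member. Its median over the 18 libraries was 3543 CPM per kilobase of exon, ahead of C1qc at 1217 and C1qa at 1164. Properdin (Cfp) followed at 283, then the receptors C5ar1 at 218 and C3ar1 at 214, and last C3 at 73.9, Cfb at 71.2 and C4b at 60.2 CPM per kilobase. C1qb exceeded C1qc in 18 of 18 libraries and C1qa exceeded Cfp in 18 of 18. The other neighbours in this order traded places, with the upper gene ahead in 12 to 14 of 18 libraries. C1qc and C1qa did so by replicate number. C1qc lay above C1qa in every library numbered 3 to 6 and below it in every library numbered 1 and 2. The ranks of the remaining neighbours did not differ beyond the spread. C3 ranged from 985 CPM per kilobase in YFP replicate 1 down to 11.4 in GFP replicate 5.

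**Figure D2:**
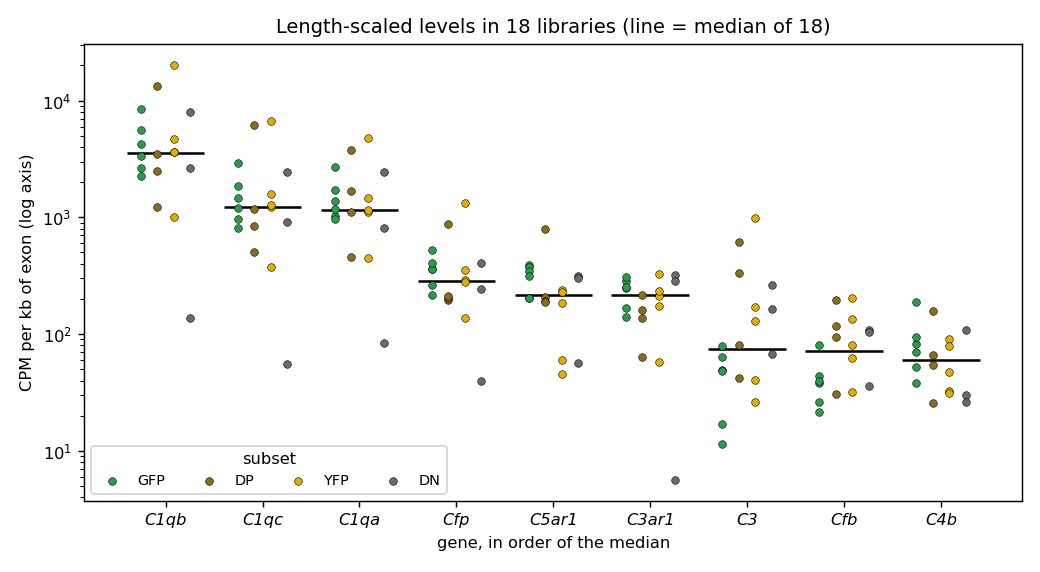
CPM per kilobase of exon on a log axis for each gene, 1 point per library coloured by subset, with a line at the median of 18 libraries. C1qb lies at the top with a median of 3543, C1qc and C1qa follow at 1217 and 1164, and C3, Cfb and C4b have medians between 60.2 and 73.9.

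C3, the central component on which all pathways converge, was the member with the largest differences from GFP cells, and these did not pass the threshold after adjustment in edgeR, though they did in DESeq2. It lies on chromosome 17 at 57203970 to 57228136, minus strand, with 42 exon blocks. GFP replicates 1 to 6 held 328, 256, 410.2, 247, 58.6 and 88.0 CPM of C3. The DP libraries (replicates 1, 2, 4 and 5) held 1701, 411, 3175 and 217 CPM. In YFP replicates 1, 3, 4, 5 and 6 the values were 5063, 869, 672, 134 and 206 CPM, and in DN replicates 1, 3 and 6 they were 843, 1365 and 349.9 CPM. No GFP library exceeded 410.2 CPM, and the highest libraries of DP and YFP lay far above that level, but DP replicate 5, YFP replicates 5 and 6 and DN replicate 6 lay inside the GFP range. Subset means were 231 ± 136 CPM in GFP (SD, n = 6), 1376 ± 1368 in DP cells (n = 4), 1389 ± 2077 in YFP cells (n = 5) and 853 ± 508 in DN (n = 3).

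The log2 fold change of C3 was 2.59 ± 0.79 (SE) in YFP versus GFP, with an edgeR unadjusted p of 0.00297 and an adjusted p of 0.336. For DP versus GFP it was 2.57 ± 0.81, with an adjusted edgeR p of 0.236, and for GFP versus DN it was -1.88 ± 0.85, with an adjusted edgeR p of 0.99998. Over the 4 subsets together the edgeR unadjusted p was 0.0168 and the adjusted p 0.447. DESeq2 called C3 in both comparisons with GFP, at 2.76 (adjusted p = 0.0353) for YFP and 2.70 (adjusted p = 0.0442) for DP, and limma voom with quality weights called it for DP at 1.91 (adjusted p = 0.0224). Without YFP replicate 1 the YFP versus GFP value was 0.98, and without DP replicate 4 the DP versus GFP value was 1.75. Within replicate numbers 3 to 6 alone the values were 1.27 for YFP and 3.18 for DP, and within numbers 1 and 2 alone 4.28 and 1.95, the former resting on 1 YFP library. Without the 5 libraries that went against their labels they were 2.86 and 2.19, neither called.

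Fibroblast markers moved with C3. The sum of 8 markers (8 of 8 matched, among them Dcn, Lum, Col1a1 and Col3a1) was 230 to 1030 CPM in GFP, 1216 to 11471 CPM in DP, 839 to 10564 CPM in YFP and 2103 to 4265 CPM in DN. The highest sums were in DP replicate 4 and YFP replicate 1, the libraries highest for C3, and none of the 8 markers was at 0 in any library. Over the 18 libraries C3 and the mean log2 level of the list correlated at r = 0.919 (rho 0.886), a description over libraries that share subsets. The part of fibroblast RNA in the C3 values was not tested.

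**Figure D3:**
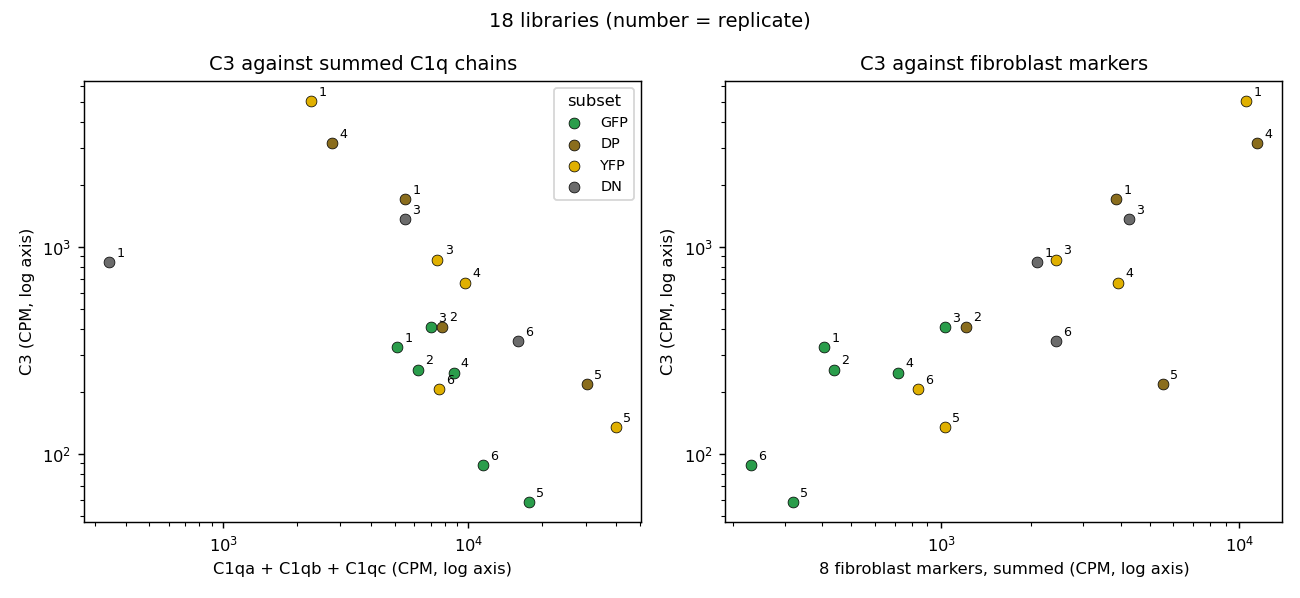
C3 in CPM against the summed CPM of the 3 C1q chains (left) and against the summed CPM of 8 fibroblast markers (right), both on log axes, 1 point per library with its replicate number. On the left most libraries fall along a descending band with DN replicate 1 apart at 344 CPM of C1q, and on the right YFP replicate 1 and DP replicate 4 are highest on both axes.

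C4b, whose protein is cleaved by the classical and lectin pathways, had the lowest median per length over the 18 libraries. Within GFP its median of 76.4 CPM per kilobase was above C3 at 48.9 and Cfb at 38.7. C4b did not differ between subsets past the threshold. It lies on chromosome 17 at 34728380 to 34743882, minus strand. C4a is a near-identical neighbour in sequence and was counted at a mean of 0.71 CPM, so the split between both genes is uncertain. GFP replicates 1 to 6 held 470.1, 538, 1072, 400.2, 217 and 295 CPM of C4b. The DP libraries (replicates 1, 2, 4 and 5) held 379, 147, 896 and 307 CPM, YFP replicates 1, 3, 4, 5 and 6 held 521, 449, 186, 269 and 179 CPM, and DN replicates 1, 3 and 6 held 171, 611 and 149.6 CPM. GFP replicate 3 and DP replicate 4 were highest, and all subsets overlapped. The difference of YFP from GFP was -0.63 ± 0.53 on the log2 scale (adjusted p = 0.974, edgeR).

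Factor B (Cfb), which supplies the protease of the alternative pathway convertase, was higher on average in DP, YFP and DN than in GFP, short of the threshold. Cfb lies on chromosome 17 at 34856374 to 34862518, minus strand, 85 bases from C2. The annotation gives 79.5% of its exon bases also to Gm20547, a gene of the same strand that is not in the count table, so its counts depend on how reads in both were treated. GFP replicates 1 to 6 held 60.2, 73.5, 226, 124, 108 and 111 CPM. The DP libraries (replicates 1, 2, 4 and 5) held 334, 87.0, 554 and 265 CPM. In YFP replicates 1, 3, 4, 5 and 6 the values were 581, 177, 227, 382 and 89.6 CPM, and in DN replicates 1, 3 and 6 they were 101, 307 and 296 CPM. In all, 3 of 4 DP libraries and 3 of 5 YFP libraries lay above the highest GFP library, as did DN replicates 3 and 6. YFP replicate 4 passed it only narrowly, at 226.8 against 225.8 CPM. DP replicate 2, YFP replicates 3 and 6 and DN replicate 1 lay inside the GFP range.

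Means of Cfb were 117 ± 58.5 CPM in GFP (SD, n = 6), 310.0 ± 193 in DP cells (n = 4), 291 ± 194 in YFP cells (n = 5) and 235 ± 116 in DN (n = 3). The log2 fold change was 1.32 ± 0.52 (SE) in YFP versus GFP (adjusted p = 0.600, edgeR) and 1.41 ± 0.55 in DP versus GFP (adjusted p = 0.472, edgeR). Without the 5 libraries against their labels these were 1.54 and 0.84. Cfb correlated with the mean log2 level of the fibroblast markers at r = 0.726, and the part of those cells in it was not tested.

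Properdin (Cfp), the stabiliser of the alternative convertase that myeloid cells release, did not differ between subsets beyond the spread. It lies on chromosome X at 20925454 to 20931555, minus strand. GFP libraries held 375 to 904 CPM (median 626). DP replicates 1, 2 and 4 lay together at 341, 353 and 369 CPM, and DP replicate 5 stood apart at 1521 CPM. YFP replicates 1, 3, 4, 5 and 6 held 236, 618, 500.3, 2306 and 481 CPM, and DN replicates 1, 3 and 6 held 68.6, 427 and 704 CPM. YFP versus GFP gave a log2 fold change of 0.43 ± 0.59 (adjusted p = 0.977, edgeR), which was -0.38 without YFP replicate 5.

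Neither receptor gene differed between subsets past the threshold. C3ar1, the receptor of C3a, lies on chromosome 6 at 122847138 to 122856161, minus strand. It was at 714, 604, 1219, 1335, 1066 and 1086 CPM in GFP replicates 1 to 6 and, in DP replicates 1, 2, 4 and 5, at 925, 692, 272 and 595 CPM. YFP replicates 1, 3, 4, 5 and 6 held 248, 918, 1000.01, 1420.3 and 746 CPM, and DN replicates 1, 3 and 6 held 24.2, 1391 and 1223 CPM. DN replicate 1, YFP replicate 1 and DP replicate 4 were lowest. YFP versus GFP gave -0.21 ± 0.60 (adjusted p = 0.981, edgeR), a direction that flips to 0.025 with DESeq2's size factors.

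C5ar1, the receptor of C5a that draws neutrophils and monocytes to its ligand, lies on chromosome 7 at 16246743 to 16259540, minus strand, 2588 bases from Gpr77, the second C5a receptor gene. GFP replicates 1 to 6 held 527, 526, 1013, 967, 891 and 808 CPM of C5ar1. DP replicates 1, 2 and 4 held 535, 489.9 and 484 CPM. DP replicate 5, the library with the highest neutrophil marker sum (38708 CPM), held 2055 CPM. That marker sum was 2000 CPM in DP replicate 4 and 1531 CPM in DN replicate 1, and the part of neutrophils in C5ar1 was not tested. YFP replicates 1, 3, 4, 5 and 6 held 117, 609.7, 471, 154 and 585 CPM of C5ar1, and DN replicates 1, 3 and 6 held 146, 808 and 785 CPM. YFP replicates 1, 4 and 5 lay below every GFP library, and YFP replicates 3 and 6 lay inside the GFP range. The log2 fold change was -1.03 ± 0.55 in YFP versus GFP (adjusted p = 0.764, edgeR). All YFP libraries lay below the GFP median of 849 CPM, as did all DN libraries and DP replicates 1, 2 and 4. Means were 789 ± 215 CPM in GFP (SD, n = 6), 891 ± 777 in DP cells (n = 4), 387 ± 236 in YFP cells (n = 5) and 579.6 ± 376 in DN (n = 3).

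The ratio of C3ar1 to C5ar1 per length lay between 0.685 and 0.824 in the 6 GFP libraries. It was 1.26 and 1.27 in YFP replicates 1 and 4 and 1.03 in both DP replicate 1 and DN replicate 3, all above the GFP range. YFP replicate 5 stood far above at 5.51, while DN replicate 1 at 0.0988, DP replicate 5 at 0.173 and DP replicate 4 at 0.336 stood below.

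No member passed an adjusted p of 0.05 in edgeR in any comparison. Over the 4 subsets together 0 of 9 were called, against 57 of all tested genes (0.332%), and 1 of 9, C3, had an unadjusted p under 0.05, against 6.96% of all genes. In YFP versus GFP 0 of 9 were called (0% of all genes) and 2 of 9, C3 and Cfb, had an unadjusted p under 0.05 (7.02% of all genes), while DESeq2 called 1 of 9 and voom none. In DP versus GFP 0 of 9 were called (0.198% of all genes), and the same genes had an unadjusted p under 0.05 (6.84% of all genes). DESeq2 and voom each called 1 of 9 there. GFP versus DN had 1 of 9 under that unadjusted level (C3, 1.35% of all genes), and YFP versus DP, YFP versus DN and DP versus DN had 0 of 9 (6.73%, 2.69% and 2.71% of all genes). None of those 4 comparisons called any gene at all after adjustment (0% each) in edgeR, whereas DESeq2 called 130 genes in YFP versus DP, 12 in YFP versus DN, 30 in DP versus DN and none of the members. Without the 5 libraries against their labels 0 of 9 were called in every comparison. YFP and DP were compared with the same GFP libraries.

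In no pair of subsets did a member's libraries separate without overlap, against 0.834% of all genes in YFP versus GFP, 1.32% in DP versus GFP, 0.793% in YFP versus DP, 1.48% in GFP versus DN, 0.951% in YFP versus DN and 1.43% in DP versus DN. The median log2 fold change of the 9 genes was 0.43 in YFP versus GFP, with 6 higher and 3 lower, against a median of 0.042 over all tested genes. It was 0.20 in DP versus GFP, with 7 higher and 2 lower, beside 0.20 over all genes. Both tallies changed with single libraries and with the scaling. Without YFP replicate 5 the first was 2 higher and 7 lower, with a median of -0.42, and without DP replicate 5 the second was 3 higher and 6 lower, with a median of -0.41. Without the 5 libraries against their labels the tallies were 6 higher and 3 lower in YFP and 2 higher and 7 lower in DP, and without TMM scaling they were 4 and 5 in YFP and 3 and 6 in DP.

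**Figure D4:**
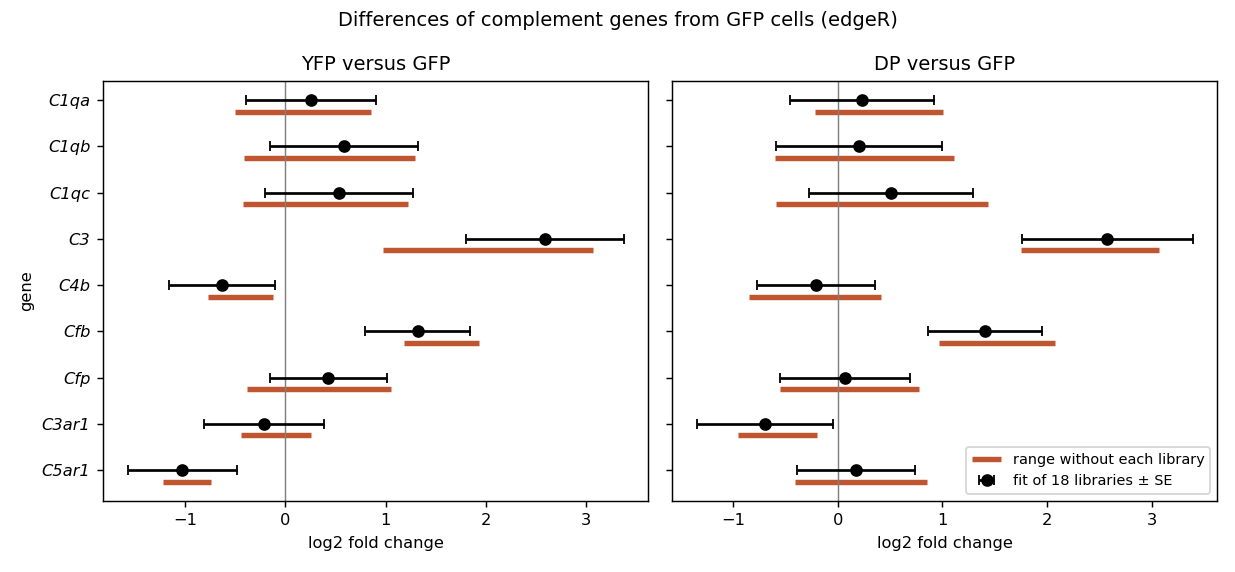
Log2 fold change of each gene in YFP versus GFP (left) and DP versus GFP (right), with black points and bars for the fit of 18 libraries ± SE and brown bars for the range when each library was left out in turn. C3 has the largest values at 2.59 and 2.57, its brown bar for YFP reaches down to 0.98, and the bars of the C1q chains and Cfp cross 0 in both panels.

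Across libraries, whatever their subset, some members moved together. Of 36 pairs tested by Pearson correlation of log2(CPM + 1) over 18 libraries, 15 passed an adjusted permutation p of 0.05, 11 positive and 4 negative. Without the 5 libraries that went against their labels, 5 of these pairs lost their call. The share that would pass among pairs of all genes was not computed, so the count has no background beside it. The C1q chains correlated with each other at r = 0.979 to 0.996 (rho 0.905 to 0.996). Each of these pairs reached the smallest permutation p that 100000 resamples can give, 1e-05, with an adjusted p of 6e-05. The permutations treated the 18 libraries as exchangeable, whatever their subset or replicate number. Cfp followed the chains at r = 0.924 with C1qa, 0.963 with C1qb and 0.972 with C1qc, also at p = 1e-05 by permutation, and the last was 0.982 in the libraries numbered 1 and 2 and 0.946 in the rest.

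C3ar1 correlated with C1qa, C1qb and C1qc at r = 0.814, 0.845 and 0.812 (rho 0.414, 0.569 and 0.583), with adjusted permutation p-values of 0.00209, 0.000669 and 0.00175. Without DN replicate 1 and YFP replicate 5, the libraries farthest from the median of the chain, r was 0.487, 0.593 and 0.497, so these relations rested in part on them. Within numbers 3 to 6 they were 0.393, 0.455 and 0.343. Cfp and C3ar1 correlated at 0.768 (rho 0.616, adjusted permutation p = 0.00209), and at 0.44 without the same libraries. By r among 6698 genes with a mean of at least 20 CPM, C3ar1 ranked 279, 292, 482 and 904 for C1qa, C1qb, C1qc and Cfp. Many other genes therefore followed them more closely. In the same way Cfb ranked 175 for C3.

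C3 ran against the C1q chains. Its r was -0.625 with C1qa, -0.610 with C1qb and -0.604 with C1qc (rho -0.748, -0.732 and -0.754), with adjusted permutation p-values of 0.0164, 0.0187 and 0.0217. Leaving out DN replicate 1 and YFP replicate 5 gave -0.779, -0.766 and -0.737. Within numbers 3 to 6 the values were -0.747, -0.739 and -0.707, and within the 6 libraries of numbers 1 and 2 they were -0.359, -0.299 and -0.305. C3 with Cfp gave -0.582 (rho -0.750, adjusted permutation p = 0.027), -0.559 without YFP replicate 1 and DP replicate 4. C3 and Cfb correlated at 0.591 (rho 0.465, adjusted permutation p = 0.0265), which was 0.326 without those same libraries and so rested on them. As a ratio of CPM, C3 to the summed C1q chains ranged from 0.00332 in GFP replicate 5 to 2.45 in DN replicate 1, with 2.21 in YFP replicate 1 and 1.14 in DP replicate 4. C4b and C5ar1 passed with no other member by Pearson correlation. By Spearman correlation C5ar1 passed with Cfp (rho 0.583, adjusted permutation p = 0.0355). Without DN replicate 1 and YFP replicate 5, C5ar1 gave r of 0.685, 0.785, 0.806 and 0.86 with C1qa, C1qb, C1qc and Cfp. Within numbers 3 to 6 these were -0.0699, -0.101, -0.0338 and -0.169.

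Other genes most like each member were ranked by Pearson r of log2(CPM + 1) over the 18 libraries, among 6423 genes with a mean of at least 20 CPM. The 9 members and predicted genes with Gm, Rik, LOC, BC or AK names were left out. With members counted, C1qc ranked 1 for C1qb, and C1qb ranked 1 for C1qa and C1qc. For C1qb the nearest other genes were Cd68, a lysosomal glycoprotein of macrophages (r = 0.988), Dhrs3 (0.984) and Tmem106a (0.983). For C1qc they were Cd81, a tetraspanin (0.987), Sfpi1, the gene of the transcription factor PU.1 (0.987), and Dhrs3 (0.986), and for C1qa Dhrs3 (0.972), Sfpi1 (0.968) and Dusp3 (0.964). Cfp was nearest to Cd81 (0.976), Cmtm3 (0.976) and Dhrs3 (0.974). C3 was nearest to Col5a2 (0.955) and Col5a1 (0.935), which encode collagen chains, and Aebp1 (0.933). Cfb was nearest to Lum, the gene of the proteoglycan lumican (0.866), F3, the gene of tissue factor (0.84), and Ly6c1 (0.8). C4b was nearest to Stat2, a transducer of interferon signals (0.863), Nisch (0.824) and Inpp5f (0.783). C3ar1 was nearest to Apobec1 (0.987), Gatm (0.975) and Gdf15 (0.974). Among the genes nearest to C5ar1 were Nfam1 (0.912) and Slc25a33 (0.906). The mean log2 level of the 8 macrophage markers correlated with C3ar1 at 0.989, with C1qb at 0.889 and with C5ar1 at 0.549 (rho 0.932, 0.666 and 0.498). Within numbers 3 to 6 these r values were 0.94, 0.643 and -0.175, so the relation of C5ar1 was not seen there.

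The proportions of the 3 C1q chains differed by replicate number, a pattern noticed after the data were seen. C1qb to C1qa per length was 1.63 to 2.26 in the 6 libraries numbered 1 and 2 and 2.66 to 4.26 in the 12 numbered 3 to 6, with no overlap and with GFP, DP, YFP and DN libraries on both sides. C1qc to C1qa was 0.666 to 0.846 against 1.01 to 1.64, also without overlap, whereas C1qb to C1qc overlapped at 2.45 to 2.96 against 2.13 to 3.23. The libraries of numbers 1 and 2 had 19245 to 21972 genes with a count and those of numbers 3 to 6 had 13150 to 18961. The labels give no batch, and the part of library preparation in these ratios was not tested.

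**Figure D5:**
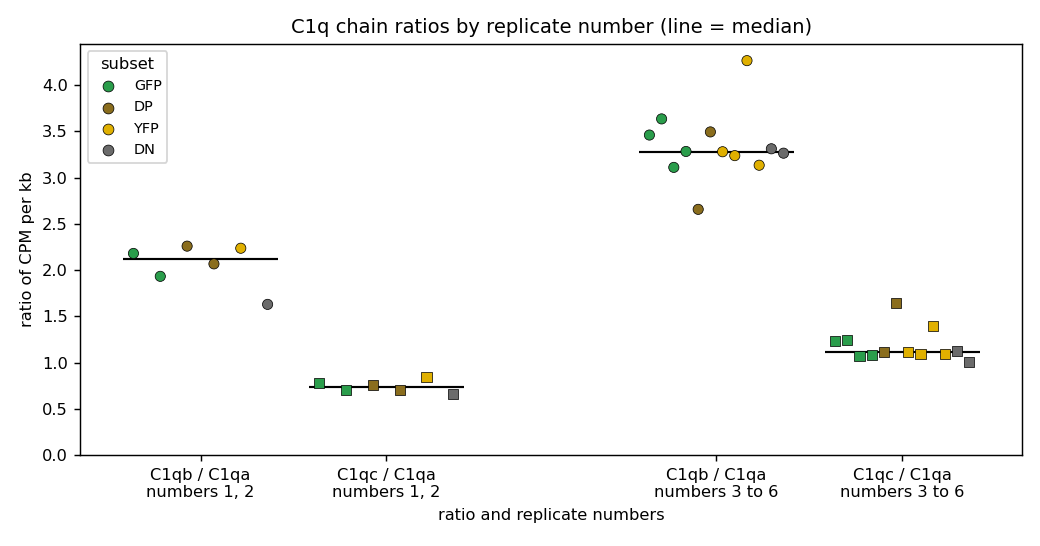
Ratio of CPM per kilobase of C1qb to C1qa (circles) and of C1qc to C1qa (squares) for the libraries numbered 1 and 2 and those numbered 3 to 6, coloured by subset, with lines at the medians. The medians are 2.12 and 3.28 for C1qb and 0.735 and 1.11 for C1qc, and neither ratio overlaps between the sets.

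Other genes of the cascade were read from a list of 45 entries, of which 44 matched and 36 were tested. Of these, 1 rose and 0 fell in DP versus GFP, against 0.198% of all genes called there. Over the 4 subsets 1 of 36 was called, against 0.332% of all genes, and 0 were called in the other 5 pairs by edgeR. In YFP versus GFP 26 of 36 were higher and 10 lower, with a median log2 fold change of 0.52 (all genes 0.042) and with 9 of the higher and 1 of the lower genes at an unadjusted p under 0.05, against 7.02% of all genes. In DP versus GFP 27 were higher and 9 lower, with a median of 0.82 (all genes 0.20) and 11 of the higher genes at that level, against 6.84% of all genes. Beside this, the fibroblast marker sums were 230 to 1030 CPM in GFP, 1216 to 11471 CPM in DP and 839 to 10564 CPM in YFP, and their part in these counts was not tested.

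Serping1, the gene of the C1 inhibitor, was called higher in DP than in GFP by the main test, but not in several other settings. The levels were 34.8, 70.9, 135, 98.3, 63.6 and 18.4 CPM in GFP replicates 1 to 6 and at 333, 168, 1570.1 and 1379.6 CPM in the 4 DP libraries, with no overlap. The log2 fold change was 3.62 (adjusted p = 0.0361, edgeR), and means were 70.2 ± 42.4 CPM (SD, n = 6) against 863 ± 714 (n = 4). Without the 5 libraries that went against their labels it was 1.83 (adjusted p = 0.99997, edgeR), and leaving out any of the 6 GFP libraries, DP replicate 4 or DP replicate 5 lost the call, with values of 3.16 to 4.34 over all libraries left out. Blocking on the number gave 3.34 (adjusted p = 0.929, edgeR), also not called. Without TMM scaling it was 3.52 (adjusted p = 0.198, edgeR), not called. With only the DP and GFP libraries fitted it was 3.64 (adjusted p = 0.169, edgeR), not called. DESeq2 and voom kept the call, at 3.89 (adjusted p = 2.46e-05, DESeq2) and 1.82 (adjusted p = 0.0166, voom). The Serping1 means of YFP and DN were also above that of GFP, at 408 ± 397 CPM (SD, n = 5) and 344 ± 57.9 CPM (n = 3). YFP versus GFP gave a log2 fold change of 2.54 (adjusted p = 0.170, edgeR), not called. GFP versus DN gave -2.29 (adjusted p = 0.99998, edgeR), also not called. Fibroblast marker sums were higher in all 4 DP libraries than in every GFP library, and their part was not tested.

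Colec11, a collectin of the lectin pathway, was called over the 4 subsets (adjusted p = 0.0338, edgeR). It was at 73.6 CPM in DP replicate 5 and 8.22 CPM in DP replicate 2, and at 1.18 CPM or less in the other 16 libraries. Without DP replicate 5 the adjusted p in edgeR was 0.550, without GFP replicate 1 it was 0.0784, and without the 5 libraries against their labels 0.528.

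Among the classical proteases, C1s stood at 13.2 ± 8.57 CPM in GFP (SD, n = 6), 91.3 ± 122 in DP (n = 4) and 82.5 ± 95.5 in YFP (n = 5), and C1ra at 13.8 ± 4.93, 73.9 ± 63.5 and 50.5 ± 57.2 CPM in the same order. Both were highest in DP replicate 4, the library with the highest fibroblast marker sum (11471 CPM), and neither was called (adjusted p of 0.530 and 0.603 in YFP versus GFP, edgeR). Fcna, a ficolin of the lectin pathway, reached 1458 CPM in DP replicate 5 and 855 CPM in YFP replicate 5, the libraries highest for the C1q chains, against a median of 44.6 CPM. Colec12, a scavenger receptor of the collectin family, had a mean of 98.8 CPM over 18 libraries. Factor D (Cfd), the protease that cleaves factor B, was at 0.789 CPM at most. Of the terminal components, C7 had a mean of 101 CPM and peaked at 627 CPM in YFP replicate 1, where the fibroblast sum was 10564 CPM, and C6 had a mean of 15.04 CPM.

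Other regulators and receptors were measured in all 18 libraries. Cr1l, a membrane regulator also called Crry, had a mean of 125 CPM, and Cd55, which speeds decay of convertases, had a mean of 16.0 CPM with its highest value, 94.7 CPM, in DN replicate 1. Itgb2, the shared chain of the integrin complement receptors, was at 489 to 1912 CPM, and Calr, the gene of calreticulin, at 354 to 1170 CPM. None of the genes named in these last sentences passed the threshold in any comparison.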

How the data were processed

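Whole-number counts per gene, not normalized, were deposited by the authors as 1 table of 23337 symbols by 18 libraries. Per the labels' protocols, sorted live CD45-positive cells gave SMART-seq v4 and Nextera XT libraries, and the submitters' processing notes name mm10, HTSeq 0.7.1, TopHat 1.4.1 and SAMtools. Which annotation and strand setting served is not given in the sources used here. Overlapping and antisense genes may therefore share counts. Reads carry no molecular identifiers. The lowest chi-square per degree of freedom between libraries of a subset was 16.4, so none was counted as a duplicate.

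Genes were tested in edgeR 4.0.16 (R 4.3.3) by the robust quasi-likelihood test after filterByExpr and TMM, with 1 mean per subset over 18 libraries. Tests ran over the 4 subsets together and for 6 pairs. P-values were adjusted by Benjamini-Hochberg over 17143 genes at a threshold of 0.05. Levels in CPM divide each count by its TMM-scaled library size, and errors of levels are SD. Intervals cover 95%. Correlations used log2(CPM + 1) with a pseudocount of 1, two-sided permutation tests of 100000 resamples and adjustment over 36 pairs, computed in Python 3.11.15 with numpy 2.4.6 and scipy 1.17.1. Exon lengths and positions came from GENCODE vM21. DESeq2 1.42.0, voom of limma 3.58.1 and other settings served as alternatives. The fit was tested on simulated data.

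The members and lists were chosen with earlier results of these data known. The text names all members and single-gene results for YFP versus GFP and for pairs with an unadjusted p under 0.05. It also names the 2 most abundant other complement genes of each role and any called. Named as well are the 3 genes most like each member with a mean of at least 20 CPM, members and predicted genes left out. DP replicates 4 and 5 and DN replicates 3 and 6 were left out, with and without YFP replicate 6, in alternatives chosen after seeing the data. Fits within replicate numbers were also added then. Same-numbered libraries deviated together in DP versus GFP (correlations 0.164 to 0.416), YFP versus DP (0.164 to 0.342) and GFP versus DN (0.570 to 0.673). In YFP versus GFP and YFP versus DN number 6, with the shallow YFP library, gave -0.019 and -0.093, and the other numbers gave 0.410 to 0.514 and 0.449 to 0.487. DP versus DN, which share number 1 alone, gave -0.221. Correlations of differently numbered libraries were not computed, so these values cannot show whether the numbers pair the libraries. The labels state no pairing. The main test therefore left the numbers out, and the replicate block was fitted as an alternative. A further promoter motif, the interferon-stimulated element, was searched at first and left out after its result had been seen, so the motifs given are not all that were tried. The values of 2 further genes, one of the other complement genes and one ranked near a member, are not reported here.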

Additional observations from a re-analysis of the deposited data

Results flagged for a closer look

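In a screen of 27 gene and subset groups of 4 to 6 libraries, 2 had a library far from the others, and chance alone flags about 1 in 20 groups. Both were in the library labelled DP replicate 5. Cfp was at 1521 CPM there (gap over range 0.947, n = 4), against 341 to 369 CPM in the other DP libraries. C5ar1 was at 2055 CPM there (gap over range 0.931, n = 4), against 484 to 535 CPM in the others. The critical value is 0.829. That library also held neutrophil markers at 38708 CPM and Cx3cr1 at 0.427 CPM, and their part in both levels was not tested.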

How the results depend on the processing

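The main test called 57 genes over the 4 subsets, 34 in DP versus GFP and 0 elsewhere. Those first counts were 135 and 92 with DESeq2's size factors in edgeR, 0 and 0 without TMM, 132 and 62 without the low-count filter, 429 and 362 with DESeq2, 1116 and 3445 with voom, and 0 and 0 with the replicate block. They were 0 and 0 without 4 of the libraries against their labels (DP replicates 4 and 5, DN replicates 3 and 6), 20 and 0 without YFP replicate 6, the fifth, as well, 3327 and 244 in numbers 1 and 2 alone, 165 and 188 in numbers 3 to 6 alone, and 0 and 0 with the number set as a covariate. With only the compared subsets fitted, DP versus GFP gave 0. YFP versus GFP gave 9 without the filter, 186 with DESeq2, 462 with voom, 55 without the 4 libraries and YFP replicate 6, and 1438 in numbers 1 and 2. YFP versus DP gave 130 with DESeq2, 1496 in numbers 1 and 2 and 9 in numbers 3 to 6. GFP versus DN gave 2296 in numbers 1 and 2. YFP versus DN gave 12 with DESeq2, 1 without the 4 libraries and YFP replicate 6, and 1807 in numbers 1 and 2. DP versus DN gave 30 with DESeq2, 2584 in numbers 1 and 2 and 1 in numbers 3 to 6. Leaving out each library gave 0 to 253 genes over the 4 subsets, 0 to 252 in DP versus GFP and 0 to 11 in YFP versus GFP. The cause of these shifts was not tested. No member was called when any library was left out. Members called were 1 with DESeq2 in YFP versus GFP, 1 with DESeq2 and 1 with voom in DP versus GFP, and, in numbers 1 and 2, where YFP and DN have 1 library each that is assumed to vary like the rest, 7 over the 4 subsets, 2 in YFP versus GFP, 5 in YFP versus DP, 6 in GFP versus DN, 5 in YFP versus DN and 6 in DP versus DN. In YFP versus GFP, values that changed direction were -0.21 (C1qa) and -0.034 (Cfp) without TMM, and -0.046, -0.087, -0.11 and -0.23 with voom for C1qa, C1qb, C1qc and Cfp. With the replicate block they were -0.036, -0.054 and -0.081 for C1qa, C1qc and Cfp, and the block changed no other member or list call beyond Serping1 and Colec11 (adjusted p = 0.999, edgeR). In numbers 1 and 2 they were -1.25, -1.12, -1.06, 0.22 and -0.65 for C1qa, C1qb, C1qc, C4b and Cfp. C1qa was -0.11 with the covariate. C3ar1 was 0.025 with DESeq2's size factors in edgeR, 0.025 with DESeq2 and 0.029 without the 4 libraries. Leaving out each library gave -0.50 to 0.86 for C1qa, -0.41 to 1.29 for C1qb, -0.42 to 1.22 for C1qc, -0.38 to 1.05 for Cfp, -0.44 to 0.25 for C3ar1 and 0.98 to 3.07 for C3. The median of all genes moved from 0.042 to 0.20 in YFP versus GFP and from 0.20 to 0.38 in DP versus GFP with DESeq2's size factors in edgeR. Among correlations, C1qa, C1qc and Cfp with C3ar1 lost their call without DN replicate 1 (r of 0.543, 0.551 and 0.501). Without the 5 libraries against their labels, 5 of the 15 called pairs lost their call. Without TMM scaling Serping1, Colec11 and some pairs of members lost theirs, 4 results in all. Depth limits YFP replicate 6, where Cfb rests on 30 counts.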
